A study of Homo sapiens with 45 samples.

Results

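Olfactory receptor genes form the largest gene family of the human genome, and chromosome 11 holds more of them than any other chromosome. The genes described here are the 174 symbols of the count table that follow the naming pattern of intact olfactory receptor genes (OR, a family number, subfamily letters and a gene number) and whose RefSeq gene of GRCh38.p14 is on chromosome 11. The table of 28278 gene names holds 402 symbols of that pattern, and 228 of them are placed on other chromosomes. RefSeq lists 168 of the 174 as protein coding, 5 as transcribed pseudogenes and 1 as a pseudogene. Of the 174, 172 matched by symbol and 2 (OR5R1 and OR52Z1) through an older name. OR9G9, OR8U8 and OR8U9 have coordinates on alternate contigs only, so cover by domains was read for 171 members.

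The cells were HCT116, an established human colon cancer line, taken 72 hours after transfection with 25 nM siRNA. The groups were the nontargeting siRNA siNTC5 and siRNA against HNRNPK, the gene of an RNA-binding and DNA-binding nuclear protein. RNA was sequenced in 4 libraries of each group, of which replicates 1 and 2 were made with a TruSeq kit and replicates 3 and 4 with a Ligation kit. A further 2 control libraries, labelled Scramble, came from RNA of another purification kit and were counted separately. Chromatin was read from 7 lists of called ChIP domains, 1 per antibody and siRNA, so cover has no replicates and the read depth behind it is unknown. The antibodies recognised lamin B1, which lines the nuclear envelope as part of the lamina, and the repressive histone marks H3K9me2, H3K9me3 and H3K27me3. For lamin B1, H3K9me3 and H3K27me3 there is a list from control cells and one from knockdown cells, and H3K9me2 has a control list alone. The labels give 3 ChIP replicates per siRNA for lamin B1, H3K9me2 and H3K9me3, and 2 for H3K27me3. How these entered the lists is not stated.

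Olfactory receptors are odorant-binding G protein-coupled receptors of the nasal sensory neurons. Each such neuron transcribes a single receptor allele and keeps the remaining clusters in compacted heterochromatin, and most other tissues transcribe few of these genes. Class I receptors, families 51 to 56, resemble those of fish and lie in 1 large cluster, whereas class II receptors fill the other clusters. Of the 171 placed members, 57 were class I and 114 were class II.

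HCT116 libraries held 12107280 to 23633851 counts in the 8-library table, and 59209169 and 55007171 in the Scramble tables. Nothing in the labels says that replicates were separate cultures, so p values measure only the spread between these libraries. HNRNPK itself fell from 884 ± 78.0 CPM (counts scaled to 1000000 per library after TMM normalisation; SD, n = 4) to 199 ± 45.3. On the log2 scale the difference was -2.17 ± 0.06 (SE), with an adjusted p of 7.29e-15 in the edgeR quasi-likelihood test. Of 10 epithelial and colon cancer markers, EPCAM, CDH1, KRT8, KRT18, KRT19 and CDX2 passed the filter on low counts, and the other 4 did not. The epithelial list summed to 2696 to 3113 CPM in siNTC5 and 4403 to 5442 after knockdown, with 4 of the 6 tested higher and KRT19 lower. Of 11 olfactory neuron markers 6 had at most 10 counts in every library, among them OMP with a highest count of 3 and RTP1 with 0. The olfactory neuron list summed to 225 to 271 CPM in siNTC5 and 102 to 132 in HNRNPK siRNA libraries, mostly from TUBB3 and ADCY3. Of its 5 tested genes, TUBB3 and ADCY3 fell, and NCAM1 (log2 1.36, adjusted p = 1.99e-06) and GNAL (log2 0.32, adjusted p = 0.00878) rose. The part of these marker changes in the results below was not tested. In bulk RNA, fewer cells with a transcript and less transcript per cell cannot be told apart.

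The placed members fell into 7 clusters, where a gap of over 1 Mb between neighbours begins a new cluster. The first cluster runs from OR52B4 to OR10A3 (chr11:4367263-7941708) and holds 69 members, all 57 of class I and 12 of class II. The second runs from OR4B1 to OR4A47 (chr11:48216810-48489722) with 7 members, and the third runs from OR4C13 to OR4C45 (chr11:49952391-50033794) with 3. The fourth, from OR4C46 to OR5AK2 (chr11:54603069-56989843), holds 48 members. The fifth, from OR9Q1 to OR10V1 (chr11:58023881-59713845), holds 21 members. OR2AT4 stood alone as the sixth (chr11:75081753-75096890). The seventh runs from OR6X1 to OR8A1 (chr11:123753580-124571374) with 22 members.

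For 1 member of each cluster of at least 5, the 300 bases around the transcription start (250 before and 50 after, RefSeq, GRCh38.p14) are printed to show the kind of sequence that the domains cover. The member with most counts among those with an entry was taken, or the first by position where all were at 0. Capitals mark matches to TAATNA on either strand, the core read by homeodomain factors such as LHX2 and EMX2, which are known to bind receptor promoters. OR52W1 (the first cluster, chr11:6198974-6199273, plus strand), OR9Q1 (the fifth, chr11:58023631-58023930, plus strand) and OR6T1 (the seventh, chr11:123943789-123944088, minus strand) were under lamin B1 in control cells and not after knockdown. The promoter of OR4B1 (the second, chr11:48216560-48216859, plus strand) was under control lamin B1, and the domain began downstream of it after knockdown. OR4C6 (the fourth, chr11:55661951-55662250, plus strand) was under lamin B1 in both lists.
OR52W1: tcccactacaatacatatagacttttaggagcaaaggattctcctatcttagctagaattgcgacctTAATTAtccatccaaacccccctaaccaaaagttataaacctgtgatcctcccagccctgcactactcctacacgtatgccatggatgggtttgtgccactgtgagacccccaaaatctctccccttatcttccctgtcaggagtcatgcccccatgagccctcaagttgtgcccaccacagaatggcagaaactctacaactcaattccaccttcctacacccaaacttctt
OR9Q1: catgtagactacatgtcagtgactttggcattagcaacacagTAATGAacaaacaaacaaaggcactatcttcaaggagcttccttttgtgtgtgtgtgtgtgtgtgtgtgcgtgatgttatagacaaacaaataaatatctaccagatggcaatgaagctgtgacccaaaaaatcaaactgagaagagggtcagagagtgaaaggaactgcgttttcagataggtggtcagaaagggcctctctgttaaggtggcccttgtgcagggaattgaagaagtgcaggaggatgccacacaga
OR6T1: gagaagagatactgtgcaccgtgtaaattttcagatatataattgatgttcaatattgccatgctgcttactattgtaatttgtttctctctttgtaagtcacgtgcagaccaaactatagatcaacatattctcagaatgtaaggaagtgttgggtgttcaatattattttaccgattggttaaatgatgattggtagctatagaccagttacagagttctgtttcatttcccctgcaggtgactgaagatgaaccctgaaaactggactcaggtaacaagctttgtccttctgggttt
OR4B1: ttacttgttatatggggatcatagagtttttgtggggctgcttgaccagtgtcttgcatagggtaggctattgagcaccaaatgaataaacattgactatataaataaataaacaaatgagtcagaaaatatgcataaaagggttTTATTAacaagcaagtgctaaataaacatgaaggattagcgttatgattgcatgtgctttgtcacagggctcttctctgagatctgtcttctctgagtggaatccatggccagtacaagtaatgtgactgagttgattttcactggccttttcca
OR4C6: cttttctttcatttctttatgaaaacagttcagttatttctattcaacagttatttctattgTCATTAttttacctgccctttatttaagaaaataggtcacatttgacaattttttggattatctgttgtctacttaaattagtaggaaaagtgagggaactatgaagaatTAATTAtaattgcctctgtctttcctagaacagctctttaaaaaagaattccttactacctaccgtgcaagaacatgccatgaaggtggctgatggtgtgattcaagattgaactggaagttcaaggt

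The table held an entry for 133 of the 171 placed members. None of the 10 members from OR51B4 to OR52D1, which took 99.8% of member counts (below), had one. The promoters of the 133 had a median GC content of 37.0%, against 58.3% over all 27305 promoters, and a median of 1 CpG against 14. A CpG was lacking in 36 members (27.1%) and in 4.16% of all promoters. TAATNA or its complement stood in 91 members (68.4%) and in 24.4% of all promoters. TATAAA, the TATA box core, stood in 47 (35.3%) against 12.0%. CCCNNGGG, the core of the sites of early B cell factors (EBF), which also bind receptor promoters, stood in 10 (7.52%) against 18.6%. Both strands were searched, and matches of different motifs may overlap. Within the members, those that kept lamin B1 had a lower median GC content (33.0%, n = 49) than those that lost it (39.3%, n = 59), and TAATNA stood in 69.4% and 71.2% of them. These are descriptions of letters in a window, not of factor binding. The motif shares were not adjusted for GC content, so a difference in motifs and one in base composition cannot be told apart.

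In control cells the lamin B1 list covered at least 50% of the gene span of 132 of the 171 members (77.2%), against 13.0% of the 27571 placed genes of the table. Of the olfactory receptor genes of other chromosomes 131 of 228 (57.5%) were covered, and of the other genes of chromosome 11 114 of 1454 (7.84%). By cluster, from the first to the seventh, 41 of 69, 7 of 7, 3 of 3, 48 of 48, 12 of 21, 0 of 1 and 21 of 22 members were covered. After knockdown the lamin B1 list covered 57 members (33.3%), against a background of 9.15% of genes. All 57 lay in clusters 2, 3 and 4, with 6, 3 and 48 members, and no member of the other clusters was covered.

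**Figure D1:**
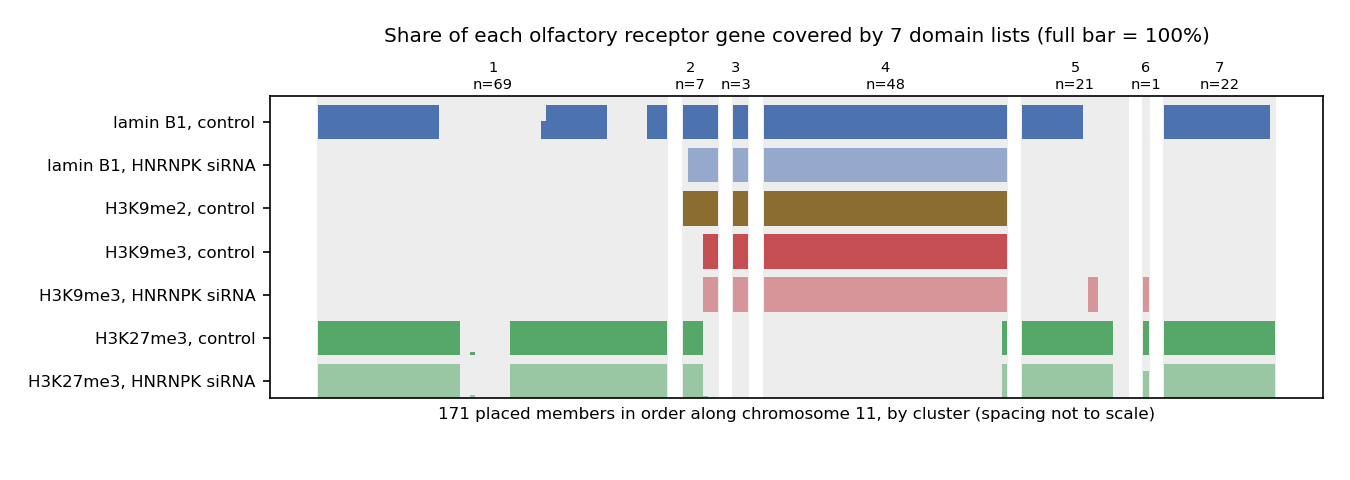
The horizontal axis gives the 171 placed members in chromosome order, split into the 7 clusters, and each row gives the share of the gene covered by 1 domain list, with a full bar at 100%. Lamin B1 cover of clusters 1, 5 and 7 is present in the control row and missing in the knockdown row, while clusters 2 to 4 carry lamin B1, H3K9me2 and mostly H3K9me3.

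Of the 132 members with lamin B1 in control cells, 75 (56.8%) were without it after knockdown, against 41.4% of the 3580 genes of the table that had it in control. None gained it. The 75 were 41 members of the first cluster, beginning with OR52B4, OR52K2, OR52K1, OR52M1 and OR52I2. They also included OR4B1 in the second cluster, 12 of the fifth, beginning with OR9Q1, OR6Q1, OR9I1, OR9Q2 and OR1S2, and 21 of the seventh, beginning with OR6X1, OR6M1, OR8D4, OR4D5 and OR6T1. All 37 class I members with lamin B1 lost it, and of the 95 class II members with lamin B1, 38 lost it and 57 kept it. Members of a cluster share their domain, so the 132 members rest on 7 control lamin B1 domains and are not 132 separate observations.

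Those 7 domains fell into a group of 5 that had no counterpart after knockdown and a pair that was nearly whole. The 5 were the domains from OR52B4 to OR52E1 (880 kb, 24 members), OR52N2 to OR52W1 (395 kb, 13), OR5P2 to OR10A3 (245 kb, 4), OR9Q1 to OR5B12 (540 kb, 12) and OR6X1 to OR8B12 (815 kb, 21). Each was covered over 100% of its length by control H3K27me3 and over 0% by H3K9me2 and H3K9me3. The domain of clusters 2 and 3 (chr11:48185001-50840000, 2655 kb) was covered by the knockdown lamin B1 list over 97.6% of its length, by H3K9me2 over 97.7% and by H3K9me3 over 94.7%. The domain of the fourth cluster (chr11:54500001-57110000, 2610 kb) was covered over 97.5%, 98.3% and 95.4%. H3K27me3 covered 4.71% and 9.58% of this pair.

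The score that the authors give each domain separated the same groups. The 5 domains missing after knockdown had scores of 0.578 to 0.712, below the median of 0.777 over the 880 domains of the control list, and the pair that was kept had scores of 0.902 and 0.950. When only domains at or above the median score of their list were used, 58 members were under lamin B1 in control cells and 1 of them lost it. Score and histone mark therefore cannot be told apart in these 7 domains. After knockdown the pair had scores of 1.20 and 1.21, in a list with a median of 0.755, and the scale of the score across lists is not stated.

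**Figure D2:**
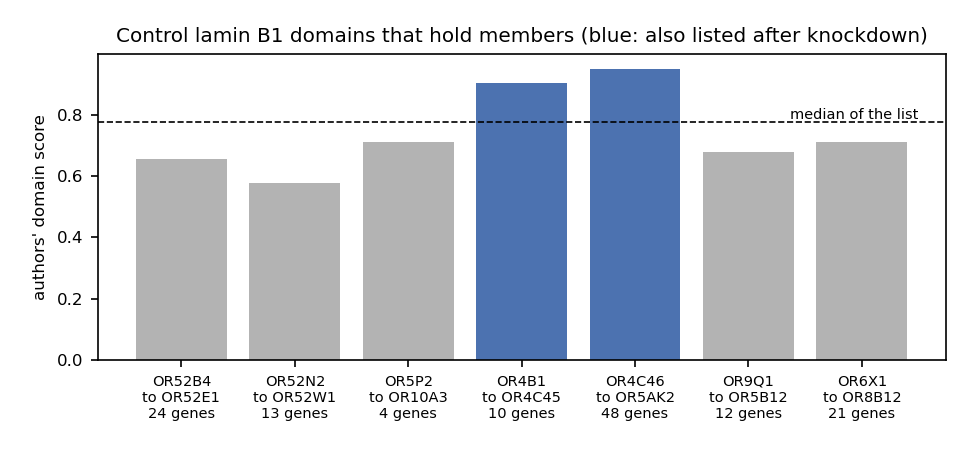
Bars give the authors' score of each control lamin B1 domain that holds members, named by its first and last member, and the dashed line is the median of the control list. The kept pair (blue, 0.902 and 0.950) stands above the median of 0.777 and the other 5 domains (grey) stand below it.

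H3K9me2 covered 58 members in control cells (33.9%, background 9.01%), all in clusters 2, 3 and 4, with 7, 3 and 48. Of the members under lamin B1, 57 of 58 with H3K9me2 kept lamin B1 and 0 of 74 without H3K9me2 kept it. Over all genes placed, 1906 of 2340 (81.5%) with both kept lamin B1, and 193 of 1240 (15.6%) without H3K9me2 did. For olfactory receptor genes of other chromosomes these were 80 of 107 (74.8%) and 3 of 24 (12.5%). The exception among the members was OR4B1, the first gene of the second cluster (chr11:48216810-48217739). The start of its lamin B1 domain was at 48185001 in control cells and at 48240001 after knockdown, so OR4B1 was 100% covered before and 0% after. Its neighbour OR4X2 (chr11:48245104-48246015) was 100% covered in both.

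H3K9me3 covered 54 members in control cells (31.6%, background 9.39%) and 57 after knockdown (33.3%, background 13.2%). The 54 were 3 of the second cluster, 3 of the third and all 48 of the fourth, and all 54 were covered after knockdown as well. OR5AN1, OR5A2 and OR2AT4 were covered after knockdown only. OR5AN1 and OR5A2, of the fifth cluster, lay in a domain listed only after knockdown (chr11:59340001-59435000, 95 kb, score 0.594). OR2AT4 lay in another (chr11:75065001-75135000, 70 kb, score 0.679). Both scores were under the median of 0.709 of the 1996 domains of that list, which has more domains than the 895 of the control list. None of the 3 had lamin B1 in either list, and all 3 had H3K27me3 in both.

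H3K27me3, the mark set by Polycomb repressive complex 2, covered 105 members in control cells (61.4%, background 22.8%). By cluster these were 59 of 69, 4 of 7, 0 of 3, 1 of 48, 18 of 21, 1 of 1 and 22 of 22. After knockdown it covered the same 105 members (61.4%, background 21.0%), and no member gained or lost the mark. The 75 members that lost lamin B1 were all under H3K27me3 in control cells, and of the 57 that kept it 4 were (OR4X2, OR4X1, OR4S1 and OR5AK2). These 4 and OR4B1, which lost lamin B1, were the 5 members with both H3K9me2 and H3K27me3. Of the rest, 53 members had H3K9me2 and H3K9me3 without H3K27me3, 74 had lamin B1 with H3K27me3 as their only mark, and 26 had H3K27me3 without lamin B1.

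Only 13 members had none of the 3 marks in control cells. OR4D11, OR4D9 and OR10V1 of the fifth cluster had no counts in any of the 8 libraries. The other 10 formed an unbroken run in the first cluster, in order OR51B4, OR51B2, OR51B5, OR51B6, OR51M1, OR51J1, OR51Q1, OR51I1, OR51I2 and OR52D1. They lay in a gap of 210 kb between H3K27me3 domains (chr11:5280001-5490000), and the gap after knockdown was 215 kb. OR51B5, whose RefSeq gene spans 165335 bases, ran past the end of the gap, so that 9.47% of it was covered. The run also lay in a gap of 720 kb between control lamin B1 domains (chr11:5095001-5815000), which holds 20 members wholly.

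Nearly all RNA counts of the 174 members came from this run. It took 99.8% of the counts of all members over the 8 libraries, and OR51B5 alone took 73.1%. Each of the 10 had at least 24 counts summed over the 8 libraries, and the next member, OR52W1, had 12. These are counts per gene and not per length, so levels of different members are not ranked.

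**Figure D3:**
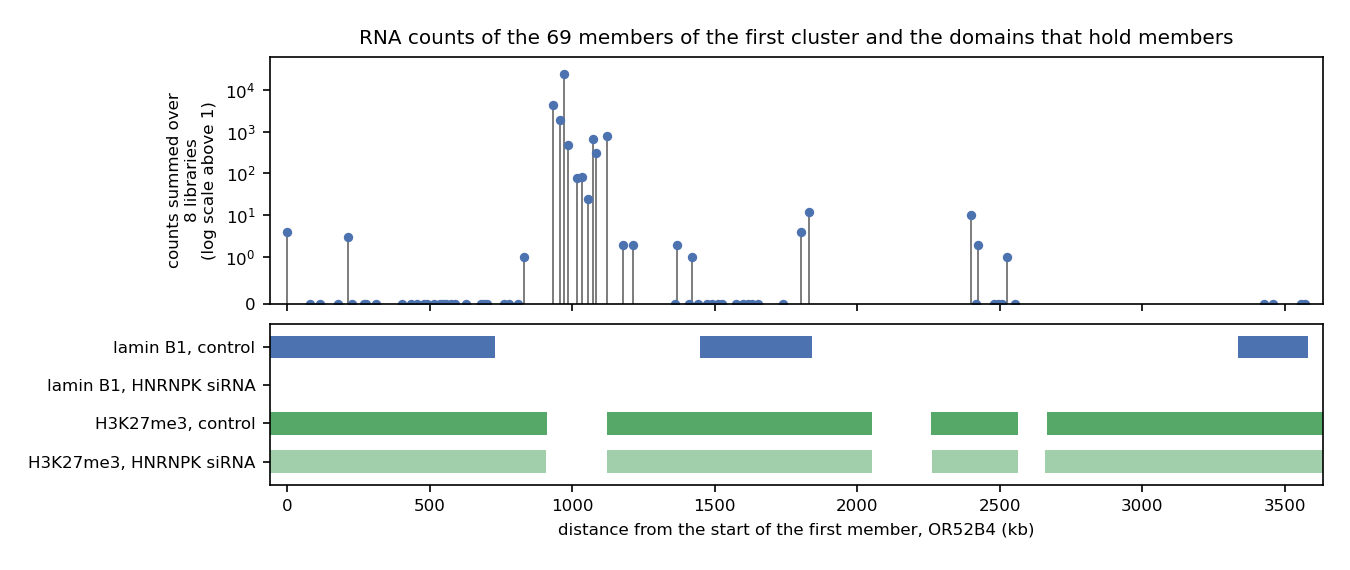
The upper panel gives counts summed over the 8 libraries for the 69 members of the first cluster, on an axis that is logarithmic above 1, against distance in kb from the start of OR52B4. Bars below give the domains that hold members, and the 10 members with at least 24 counts stand in the gap between H3K27me3 domains, with 12 counts or fewer on every other member.

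Counts of the other 164 members stayed near 0 after knockdown. Over all 174, 148 had 0 counts in all 8 libraries, against 23.7% of genes, and 165 had at most 10 counts in each library, against 46.5% of genes. The 9 over that limit were the run without OR51Q1. Outside the run no member had more than 6 counts in any library. The 164 summed to 3, 10, 7 and 1 counts in siNTC5 replicates 1 to 4 and to 9, 4, 9 and 6 in HNRNPK siRNA replicates 1 to 4. The ranges overlapped. For a member at 0 in all libraries of a group, 3 counts allow up to 0.0410 CPM in siNTC5 and 0.0562 CPM in HNRNPK siRNA libraries, for counting error only. The 228 receptor genes of other chromosomes had at most 10 counts in each of the 8 libraries, while the highest of them in a Scramble library was 105 counts.

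The 75 members that lost lamin B1 summed to 0, 4, 3 and 1 counts in siNTC5 replicates 1 to 4 and to 7, 3, 6 and 2 in the HNRNPK siRNA libraries. Of the 75, 69 had 0 counts in all 8 libraries, and none had more than 5 counts in a library. OR52W1 gave 12 of these counts, with 0, 0, 3 and 1 in siNTC5 and 5, 1, 2 and 0 after knockdown. OR52I2, OR6T1 and OR10S1 had no count in siNTC5 and 3, 1 and 2 counts after knockdown. The 57 members that kept lamin B1 had 1 count in all, of OR4C6 in siNTC5 replicate 3. A change in these genes below a few counts per library was not detectable at this depth. The 105 members under H3K27me3 summed to 20 counts in siNTC5 and 28 after knockdown, and the 75 that lost lamin B1 to 8 and 18. These sums are raw, from knockdown libraries of lower total depth, and the differences were not tested.

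The Scramble tables list 164 of the 174 members, and 150 of these were at 0 in both libraries. Outside the run the members summed to 8 and 7 counts there, although these libraries are deeper. OR51B5 had 7888 and 7717 counts, or 133 and 140 CPM of the library total, against 168 to 187 in siNTC5 on that scale. OR51B4 had 27.9 and 32.6 CPM, below every siNTC5 library (34.1 to 41.8). The lower of these lay inside the 21.9 to 30.1 of the knockdown libraries and the higher lay above it. With the Scramble libraries added as controls the log2 difference of OR51B4 was -0.48, at an edgeR adjusted p of 0.00367. OR51B2 had 21.9 and 21.6 CPM, within the 17.8 to 21.9 of siNTC5. OR51B6 had 0.135 and 0.255 CPM against 2.57 to 5.18, and OR51I1 had 0.929 and 0.909 against 2.51 to 4.96. OR51I2 had 0.287 and 0.145 CPM against 1.39 to 2.16, and OR52D1 had 0.304 and 0.564 against 3.17 to 6.94. The tables were processed separately and from different RNA kits, so Scramble and siNTC5 values are set side by side without a test of one against the other. The fit with Scramble libraries added pools both as controls in spite of these differences.

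Within the run, 7 members passed the filter on low counts, and 5 of the 7 were called at an adjusted p under 0.05, 3 higher and 2 lower after knockdown. Over all 13933 genes tested, 71.5% were called, with 35.5% higher and 36.1% lower, so a count of 5 of 7 is near the background. The number higher was 5 without siNTC5 replicate 3, which added OR51B5 and OR51J1. All adjusted p values here are from the edgeR quasi-likelihood test with kit in the model, adjusted over all genes tested. The 2 that fell were OR51B2 and OR51B4, at the end of the run next to the globin genes, and the 3 that rose were OR51I1, OR51I2 and OR52D1, at the other end.

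OR51B2 had 298, 511, 325 and 370 counts in siNTC5 replicates 1 to 4 and 140, 121, 80 and 73 after knockdown. Every knockdown library was below every control library, at 20.2 ± 1.81 CPM against 7.74 ± 1.61 (SD, n = 4). The share of all genes whose groups separate in this way was not computed, here or for the members below. The log2 fold change was -1.38 ± 0.12 (SE, adjusted p = 7.37e-09).

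OR51B4, a class I receptor reported in colon cancer cells, had 571, 987, 585 and 649 counts in siNTC5 and 421, 406, 265 and 301 after knockdown. Again the groups did not overlap in CPM, with 37.4 ± 3.32 in siNTC5 and 26.3 ± 3.41 after knockdown (SD, n = 4). On the log2 scale it fell by 0.51 (SE 0.08, adjusted p = 2.38e-05).

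OR51I1 had 83, 107, 42 and 45 counts in siNTC5 and 140, 143, 53 and 49 after knockdown, or 3.66 ± 1.21 and 7.09 ± 3.33 CPM (SD, n = 4). The CPM values of the groups overlapped over both kits, but each knockdown library stood above both control libraries of its kit, and TruSeq libraries were higher than Ligation libraries in both groups. The log2 fold change was 0.94 ± 0.14 (SE, adjusted p = 1.19e-05).

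OR51I2 had 25, 51, 22 and 25 counts in siNTC5 and 79, 57, 24 and 24 after knockdown, or 1.61 ± 0.349 and 3.36 ± 1.62 CPM (SD, n = 4). Each knockdown library was above both controls of its kit, by little in the Ligation libraries. The fitted log2 difference was 1.03 ± 0.22 (SE), at an adjusted p of 0.000429.

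OR52D1, the last of the run, had 91, 164, 47 and 66 counts in siNTC5 and 157, 125, 59 and 51 after knockdown, or 4.75 ± 1.71 and 7.20 ± 3.07 CPM (SD, n = 4). As for OR51I1, the order held within each kit and not across kits. The log2 fold change was 0.58 ± 0.14 (SE, adjusted p = 0.00113), and without the kit term the call was lost (adjusted p = 0.123).

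OR51B5 had 3054, 4427, 2694 and 3012 counts in siNTC5 and 3115, 2687, 2066 and 2137 after knockdown. In CPM these were 178 ± 8.77 and 189 ± 16.0 (SD, n = 4), with overlapping groups, and the log2 fold change of 0.09 ± 0.04 (SE) did not pass the test (adjusted p = 0.0880). OR51B6 had 43, 103, 54 and 93 counts in siNTC5 and 51, 76, 32 and 26 after knockdown, or -0.18 ± 0.25 as a log2 difference (SE), at an adjusted p of 0.537. Its groups overlapped as well.

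The other 3 members of the run did not pass the filter on low counts. OR51J1 had 6, 10, 9 and 9 counts in siNTC5 and 13, 14, 11 and 8 after knockdown, and in CPM all 4 knockdown libraries were above all 4 control libraries (0.466 ± 0.105 against 0.871 ± 0.160, SD). In the fit without a filter its adjusted p was 0.0710. OR51M1 had 11, 26, 9 and 7 counts in siNTC5 and 7, 4, 4 and 11 after knockdown, and OR51Q1 had 3, 9, 4 and 2 against 2, 0, 2 and 2. That fit held 26 members and called 5 of them, against 50.4% of the 21564 genes in it, with 6 at an unadjusted p under 0.05.

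**Figure D4:**
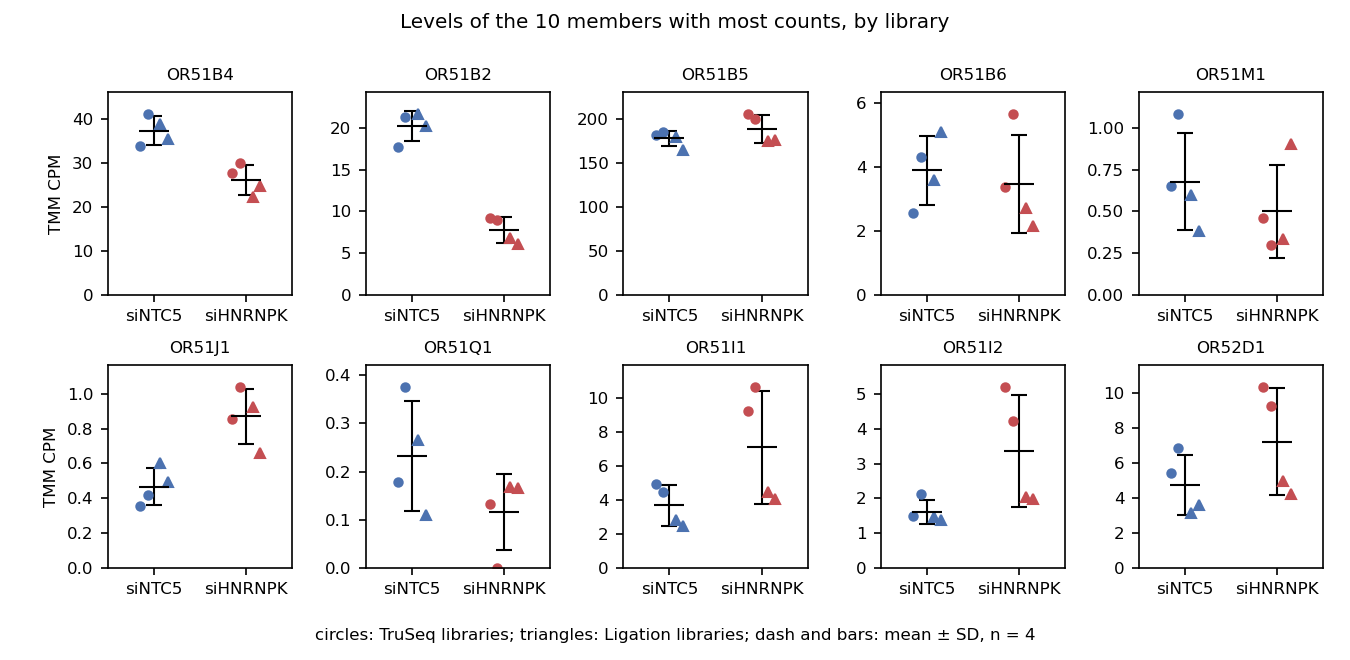
Points give TMM-normalised CPM of each library, with circles for TruSeq and triangles for Ligation libraries, and dashes with bars give mean ± SD (n = 4). OR51B4, OR51B2 and OR51J1 separate the groups in every library, whereas OR51I1, OR51I2 and OR52D1 separate them within each kit only. The share of all genes that separate in either way was not computed.

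RefSeq places 7 of these members (OR51B6, OR51M1, OR51J1, OR51Q1, OR51I1, OR51I2 and OR52D1) inside the span of OR51B5. OR51B4 and OR51B2 overlap no other RefSeq gene. The strand used in counting is not given in the sources used here, so reads of OR51B5 and of the genes inside it cannot be told apart with certainty, and their values are uncertain to that extent.

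The size of the fold change was compared between kits. With the TruSeq libraries alone the log2 fold change was -1.10 for OR51B2, -0.37 for OR51B4, 1.09 for OR51I1, 1.37 for OR51I2 and 0.68 for OR52D1, and all 5 were called. With the Ligation libraries alone these were -1.72, -0.67, 0.69, 0.49 and 0.43, and OR51I2 (adjusted p = 0.180) and OR52D1 (adjusted p = 0.0802) were no longer called. TruSeq alone called 7 of the 9 members it tested, which adds OR51B5 (0.15, adjusted p = 0.0341) and OR51J1 (1.26, adjusted p = 0.0454). The share of all genes called with TruSeq alone is not given here, so this count is not read against a background. OR51B6 was at 0.36 with TruSeq alone (adjusted p = 0.341) and at -0.87 with Ligation alone (adjusted p = 0.00211). In the edgeR test of the kit by treatment term none of the 7 members passed, and the lowest adjusted p was 0.246, for OR51B2.

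**Figure D5:**
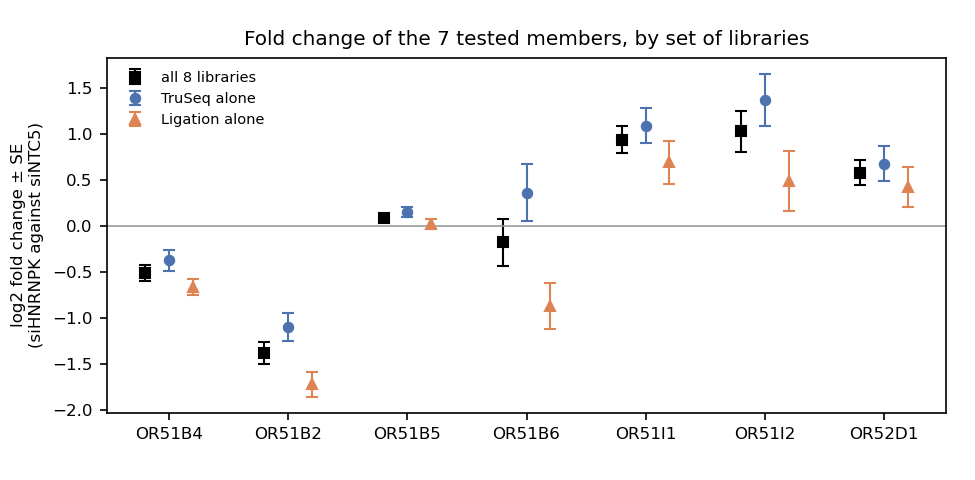
Points give the log2 fold change of HNRNPK siRNA against siNTC5 with its SE for the 7 tested members, in order along the chromosome, from all 8 libraries, TruSeq alone and Ligation alone. OR51B4 and OR51B2 are below 0 and OR51I1, OR51I2 and OR52D1 above 0 in each set, and OR51B6 changes sign between the kits.

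The other genes of the table within the clusters of at least 5 members were read for comparison. They include the receptor pseudogenes OR5E1P, OR7E5P and OR8G2P, which are outside the naming pattern and had no counts. Of 74 such genes 34 had at most 10 counts in every library and 38 were tested, of which 15 rose and 5 fell, against 35.5% and 36.1% of all genes tested. The number that fell was 3 without siHNRNPK replicate 1, 8 without a filter, 3 with a mean of at least 50 counts and 3 with added Scramble controls. The largest fall was of CAVIN3, at -2.16 ± 0.30 on the log2 scale (SE, adjusted p = 3.18e-06). MRPL17 was at -0.55 ± 0.06 (SE, adjusted p = 7.14e-08), and both lay under H3K27me3 in control cells. LPXN (-0.54, adjusted p = 0.0399), PATL1 (-0.29, 9.17e-06) and APBB1 (-0.29, 0.0107) also fell. HBE1 and HBG2, embryonic and fetal globin genes next to OR51B4, rose. HBE1 had 1241, 1566, 1040 and 1188 counts in siNTC5 and 3406, 2837, 2400 and 2713 after knockdown, with no overlap in CPM, or 1.66 ± 0.05 on the log2 scale (SE), at an adjusted p of 9.88e-15. HBG2 went from 1.73 to 5.91 CPM (log2 fold change 1.78 ± 0.17, SE, adjusted p = 2.35e-08). Both lie under H3K27me3 in control cells, outside lamin B1, and beside the run that holds OR51B2 and OR51B4, which fell.

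Of the 74, 13 lost lamin B1 along with the receptor genes, the pseudogenes OR5E1P and OR8G2P among them. Of these 13, 5 were tested and 4 rose, against 35.5% of all genes tested. Of the 13, 10 lay in the first cluster, and genes that share a domain are not separate observations. Whether loss of lamin B1 bears on their RNA was not tested. NLRP14 rose by 1.81 ± 0.22 on the log2 scale (SE, adjusted p = 6.56e-07) and C11orf42 by 1.34 ± 0.33 (SE, adjusted p = 0.00125). TRIM68, a ubiquitin ligase gene among the class I receptors, rose by 0.77 ± 0.10 (SE, adjusted p = 9.93e-07), and VWA5A, inside the seventh cluster, by 0.45 ± 0.12 (SE, adjusted p = 0.00275). TRIM21 was at 0.18 ± 0.10 (SE, adjusted p = 0.0975). Of the 75 receptor genes in the same state none had enough counts to be tested.

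Genes that act with the receptors in sensory neurons were taken as a list of 36, of which 22 passed the filter, 7 rose and 11 fell, or 18 called against 71.5% of all genes tested. The number that rose was 4 with added Scramble controls and 11 without a filter. Odorant signals pass from the receptor through the G protein of GNAL to the cyclase ADCY3 and on to the cyclic nucleotide-gated channel. Of 13 transduction genes 6 were tested, 2 rose and 3 fell. The 2 that rose were GNAL (log2 0.32 ± 0.10, SE, adjusted p = 0.00878) and RIC8B (0.38 ± 0.07, SE, adjusted p = 7.81e-05). ADCY3 fell from 90.8 ± 2.91 to 45.7 ± 3.03 CPM (SD, n = 4; log2 fold change -0.99 ± 0.05, SE, adjusted p = 9.01e-12), and PDE4A, which degrades cyclic AMP, fell by 0.85 on the log2 scale (adjusted p = 1.39e-10). CNGA2, the olfactory channel subunit, had at most 1 count in a library. Of 6 escort genes, which carry receptors to the cell surface, RTP1, RTP2 and RTP3 had 0 counts in all 8 libraries. REEP1 and REEP6 fell by 1.18 and 1.58 (adjusted p = 1.05e-08 and 4.32e-10).

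Of 17 genes of receptor choice and its feedback 14 were tested, 5 rose and 6 fell, with a median log2 fold change of 0.01. EBF3 rose by 1.63 ± 0.28 (SE, adjusted p = 3.65e-05) from 0.659 CPM, and EBF4 fell by 0.88 (adjusted p = 8.17e-05). EIF2AK3, the kinase of the unfolded protein response that stabilises a receptor choice, rose by 1.01 ± 0.09 (SE, adjusted p = 5.03e-09). LMNA, which encodes the A-type lamins, fell by 0.80 (adjusted p = 6.48e-10). LBR, the lamin B receptor, whose loss from the nuclear envelope is part of how sensory neurons gather receptor genes, was at -0.19 ± 0.04 on the log2 scale (SE), at an adjusted p of 0.000601. EBF1, the founding member of the family that binds CCCNNGGG cores, and EMX2 did not pass the filter. LHX2 passed it, at 7.71 CPM in siNTC5 and 6.22 after knockdown (log2 -0.31 ± 0.14, SE, adjusted p = 0.0471). EBF2 passed it as well and was at -0.03 ± 0.18 (SE, adjusted p = 0.904).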

How the data were processed

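Gene counts were deposited by the authors as whole-number counts per gene symbol. Per the submitters' processing notes, tools for RNA were STAR 2.7.1a, featureCounts and Subread 2.0.6, with build hg38; the strand counted is not given in the sources used here. The notes for the Scramble tables name hg19 and hg38. ChIP domains were deposited by the authors as intervals with a score per domain; notes name fastp 0.23.2, Bowtie2 2.5.1 and deepTools 3.1.3, and neither caller nor input use nor pooling is stated. Edges of domains lie on multiples of 5 kb, apart from ends of chromosomes.

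The members and gene lists were chosen with earlier results of these data known. Positions came from RefSeq (GRCh38.p14). A gene counted as covered when at least 50% of its span lay in a list. The 8 libraries were tested in edgeR 4.0.16 (R 4.3.3) by quasi-likelihood, after filterByExpr and TMM, with kit and treatment in the model and Benjamini-Hochberg adjustment at 0.05. Libraries with the same replicate number deviated together from their group means (r across genes 0.100, 0.425, 0.337 and 0.265 for numbers 1 to 4, and 0.0582 and 0.00904 within TruSeq and Ligation once kit was removed). Kit is the label that the numbers share, and little shared deviation was left beyond it. Replicates of a kit differed by more than counting noise (chi-square per degree of freedom 2.23 to 8.09). The fit and the cover step were tested on simulated data.

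Members named are those past the filter, the 10 with most counts, the first and last of each cluster of at least 5, and up to 5 per cluster that lost lamin B1 or differed from most of it. Other genes named were HNRNPK and up to 8 of the lists by fold change. LBR, LHX2, EBF2, GNAL, RIC8B, CNGA2, RTP1 to RTP3, EBF1, EMX2, the globin genes and the neighbours were chosen after their values were seen. Alternatives were DESeq2 1.42.0 size factors and Wald test, other filters, the replicate block, each kit, added Scramble controls, each library left out, and other limits on cover, domains and gaps.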

Additional observations from a re-analysis of the deposited data

Results flagged for a closer look

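OR51I2 in siNTC5 replicate 2 stood apart from the other siNTC5 libraries, at 2.13 CPM against 1.37 to 1.48. The gap to its nearest neighbour was 0.850 of the range of the group, more than Dixon's limit for 4 samples allows. In all, 26 groups of 4 libraries were checked this way, of which chance flags about 1 in 20. Without that library the log2 fold change of OR51I2 was 1.05 (edgeR adjusted p = 0.00136), against 1.03 with it.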

How the results depend on the processing

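Of the alternative values of the main counts, 114 stayed within 1.5 times and 5 moved further. With Scramble libraries as added controls 3 members were called instead of 5, and 13 genes instead of 20 among the other genes of the clusters. Apart from the fit without a filter, the share of all genes called in the alternative fits is not given here. With domains at or above the median score, members under control lamin B1 went from 132 to 58, and those that lost it from 75 to 1. Clusters numbered 11 with a gap of 0.5 Mb and 5 with a gap of 2 Mb. OR51B6 had the opposite sign with TruSeq alone (0.36), with added Scramble controls (0.48) and without siNTC5 replicate 4 (0.038), and was not called in any of these; leaving out each library gave -0.515 to 0.038, and the cause was not tested. OR51B5 was called with a mean of at least 50 counts (0.12, adjusted p = 0.0247), with TruSeq alone (0.15, 0.0341) and without siNTC5 replicate 3 (0.12, 0.0289). With added Scramble controls OR51I2 (adjusted p = 0.0664) and OR52D1 (adjusted p = 0.212) were not called. With the replicate block in place of kit, which treats the libraries as paired, OR51B2 was at -1.37 and OR51I2 at 1.03, and the block changed no call among the 7 members. Leaving out each library in turn gave 5 to 7 called members, 165 near 0, 18 to 24 other genes of the clusters (14 to 17 higher, 3 to 7 lower) and 17 to 21 genes of the signalling and choice list. OR51J1 was called with TruSeq alone and without siHNRNPK replicate 4, siNTC5 replicate 3 or siNTC5 replicate 4 (adjusted p = 0.0454, 0.0206, 0.0265 and 0.0479). The split by H3K9me2 was 57 of 58 and 0 of 74 kept with any overlap, with domains of at least 100 kb, with shared score limits and with merging. It was 57 of 58 and 0 of 73 with whole genes, and 49 of 50 and 0 of 57 with 300 bases around the start. With domains at or above the median score, 57 of 58 with H3K9me2 kept lamin B1. No member without H3K9me2 was then under control lamin B1, so that setting could not make the split. Depth limits the members outside the OR51B4 to OR52D1 run, and domain lists carry no error.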
